A study of Mus musculus with 23 samples.

Results

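The interferon-inducible GTPases described here are 10 genes of the mouse: 7 guanylate-binding proteins (Gbp2, Gbp3, Gbp4, Gbp5, Gbp6, Gbp7 and Gbp9) and 3 immunity-related GTPases (Igtp, Irgm1 and Iigp1). They were chosen by gene symbol from the 53090 genes in the deposited tables, with no measured value in the rule, and each symbol was found once. Their messenger RNA was measured in 23 libraries of microglia, the macrophages that live in brain tissue, from female C57BL/6 mice. The young group (Y) had 7 libraries, the young repopulated group (Y-re) 3, the old group (O) 5 and the old repopulated group (O-re) 8. In the repopulated groups microglia had been depleted with PLX5622, an inhibitor of the CSF1R receptor on which microglia depend, given in AIN-76A chow at 1200 ppm, and a new population had formed. The treatment protocol gives control mice the same chow without the drug. The ages, the days on the drug and the days after it are not given in the sources. One protocol text has CD11b+ cells selected on magnetic columns and cultured, and another has RNA taken from FACS-sorted microglia. The comparisons address whether age changes the microglial transcriptome and whether renewal of the cells changes it again.

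Both GTPase families are induced by interferons and act inside the cell. Guanylate-binding proteins are large GTPases that assemble on the membranes of pathogens and of the vacuoles around them, and they help inflammasomes sense what is released. Among the immunity-related GTPases, Irgm1 and Igtp regulate the others and mark the cell's own membranes, whereas Iigp1 is an effector that loads onto pathogen vacuoles. Interferon gamma acts through GAS elements in promoters, and type I interferons act mainly through ISRE elements, which a complex with STAT2 and IRF9 binds. In microglia, these genes are commonly read as a record of interferon exposure.

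The promoters of the members carry letters that match both elements, and 4 of them are shown because their genes bear the results below or stand at the top of the family's expression. RefSeq promoters (GRCm38.p6, 250 bases before to 50 bases after the start of transcription) were read for 6 of the 10 members, with a pair of promoters for Gbp3. The search for the members left out a chromosome that holds none of these 6, so absence of a promoter was not established for every other member. The shares over all genes given below include that chromosome. Each sequence reads 5′ to 3′ on the gene's strand, and capitals mark matches to the ISRE core GAAANNGAAA or the GAS core TTCNNNGAA, both searched on both strands. They cover chr3:142620413-142620712 (+) for Gbp2, chr3:142496684-142496983 (+) for Gbp5, chr11:48871371-48871670 (-) for Irgm1 and chr11:58199306-58199605 (+) for Igtp.
Gbp2: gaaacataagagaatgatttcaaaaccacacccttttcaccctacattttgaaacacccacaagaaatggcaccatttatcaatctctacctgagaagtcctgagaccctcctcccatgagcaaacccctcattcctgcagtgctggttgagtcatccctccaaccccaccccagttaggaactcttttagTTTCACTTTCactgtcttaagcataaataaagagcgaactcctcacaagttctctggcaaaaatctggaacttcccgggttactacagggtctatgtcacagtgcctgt
Gbp5: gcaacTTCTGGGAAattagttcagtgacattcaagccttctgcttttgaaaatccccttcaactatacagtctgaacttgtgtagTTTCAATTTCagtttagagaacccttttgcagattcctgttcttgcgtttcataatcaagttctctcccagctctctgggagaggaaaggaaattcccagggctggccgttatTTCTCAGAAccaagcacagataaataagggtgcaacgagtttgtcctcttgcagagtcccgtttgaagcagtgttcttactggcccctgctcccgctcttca
Irgm1: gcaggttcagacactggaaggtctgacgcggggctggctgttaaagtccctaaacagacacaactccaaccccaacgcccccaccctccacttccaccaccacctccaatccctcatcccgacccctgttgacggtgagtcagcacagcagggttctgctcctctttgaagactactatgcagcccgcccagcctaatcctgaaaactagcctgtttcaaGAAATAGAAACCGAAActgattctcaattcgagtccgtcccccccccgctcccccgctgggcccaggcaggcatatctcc
Igtp: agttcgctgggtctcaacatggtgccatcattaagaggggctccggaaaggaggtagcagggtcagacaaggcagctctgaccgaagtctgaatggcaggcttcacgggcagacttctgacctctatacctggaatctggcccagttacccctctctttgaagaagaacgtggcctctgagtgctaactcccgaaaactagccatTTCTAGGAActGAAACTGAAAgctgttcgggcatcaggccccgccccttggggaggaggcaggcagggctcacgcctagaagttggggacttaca
The ISRE core was present in 6 of the 6 members whose promoters were read, against 3.99% of the 27025 mouse genes in the table. Per promoter it was in 6 of 7, against 3.44% of 32851, since the second promoter of Gbp3 had none. In Gbp2 it began at position -59 from the start site. Irgm1 held a pair of overlapping matches at -30 and -24, and Igtp a single match at -34. Gbp3 had overlapping matches at -45 and -39 in 1 of its promoters, and Gbp7 had 1 match at -53. The GAS core was present in 3 members, against 9.55% of all genes. Gbp5 held it at -245 and -52 beside an ISRE match at -165, Gbp7 at -106 and -87, and Igtp at -45, with no overlap between GAS and ISRE matches. A match describes letters in this window and is no measured binding site.

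The Gbp genes lie in clusters. On GRCm38, Gbp5, Gbp7, Gbp3 and Gbp2 lie in that order within 144 kb of chromosome 3 (142493978 to 142638008, plus strand). Gbp9, Gbp4 and Gbp6 lie within 216.1 kb of chromosome 5 (105077630 to 105293698, minus strand), where the annotated spans of Gbp9 and Gbp4 overlap on the same strand. Irgm1 (48861968 to 48871683, minus strand) and Igtp (58199556 to 58207591, plus strand) are on chromosome 11, within a span of 9345.6 kb. All of these genes are annotated as protein-coding. The identifier of Iigp1 had no match in the annotation, so its position and type are not given. Family members resemble each other in sequence. Expected counts that are not whole come from reads divided among genes, and the data do not say which genes shared them. The expected count was a whole number in 22 of 23 libraries for Gbp5 and Irgm1 and in 16 for Gbp2. It was whole in none for Gbp3, Gbp4, Gbp7 and Igtp, in 1 for Gbp6 and Iigp1 and in 2 for Gbp9. Values of the members with divided reads are therefore less certain than those of Gbp5, Irgm1 and Gbp2.

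Library totals ranged from 43.657 to 58.189 M expected counts (M, 1000000), and all 10 members passed the filter on low counts that left 18720 genes for testing. Young replicate 3 was the least like the others, with a median correlation of log2 CPM with them of 0.912 (0.933 to 0.956 for the rest), and had the fewest genes with a count (16399, against 17620 to 22208). Microglial markers (10 genes such as P2ry12 and Tmem119) summed to between 9810 and 32000 counts per M counts (CPM) in every library, so the labelled cell type was present throughout. Markers of monocytes and neutrophils (10 genes) summed to 31.8 to 288 CPM in Y, 124 to 371 in Y-re, 243 to 2170 in O and 145 to 2930 in O-re. Markers of T and NK lymphocytes, the main sources of interferon gamma, summed to at most 5.36 CPM in any library. The sample titles number the libraries, and libraries 1 to 11 (3 Y, 2 O, 5 O-re) and 12 to 24 (4 Y, 3 O, 3 O-re, all 3 Y-re) are also given separately below. The labels do not call these runs batches.

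Per transcript length, Irgm1 was the most abundant member in every group, at a mean of 72.7 transcripts per M (TPM) in Y, 65.3 in Y-re, 92.3 in O and 48.9 in O-re. It was above Igtp, second in each group, in every library of Y, Y-re and O, while the ranges of this pair overlapped in O-re. Igtp averaged 33.8, 28.9, 40.1 and 24.2 TPM in the same order. The middle of the order held Gbp2, Gbp3, Gbp9, Gbp5 and Gbp7, between 14.8 and 25.3 TPM in Y. Their neighbours in that order overlapped in Y and in O-re. Gbp6 and Iigp1 followed, at 6.11 and 5.9 TPM in Y, and Gbp4 was the lowest member in each group, between 0.973 TPM in O-re and 2.48 TPM in O.

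**Figure D1:**
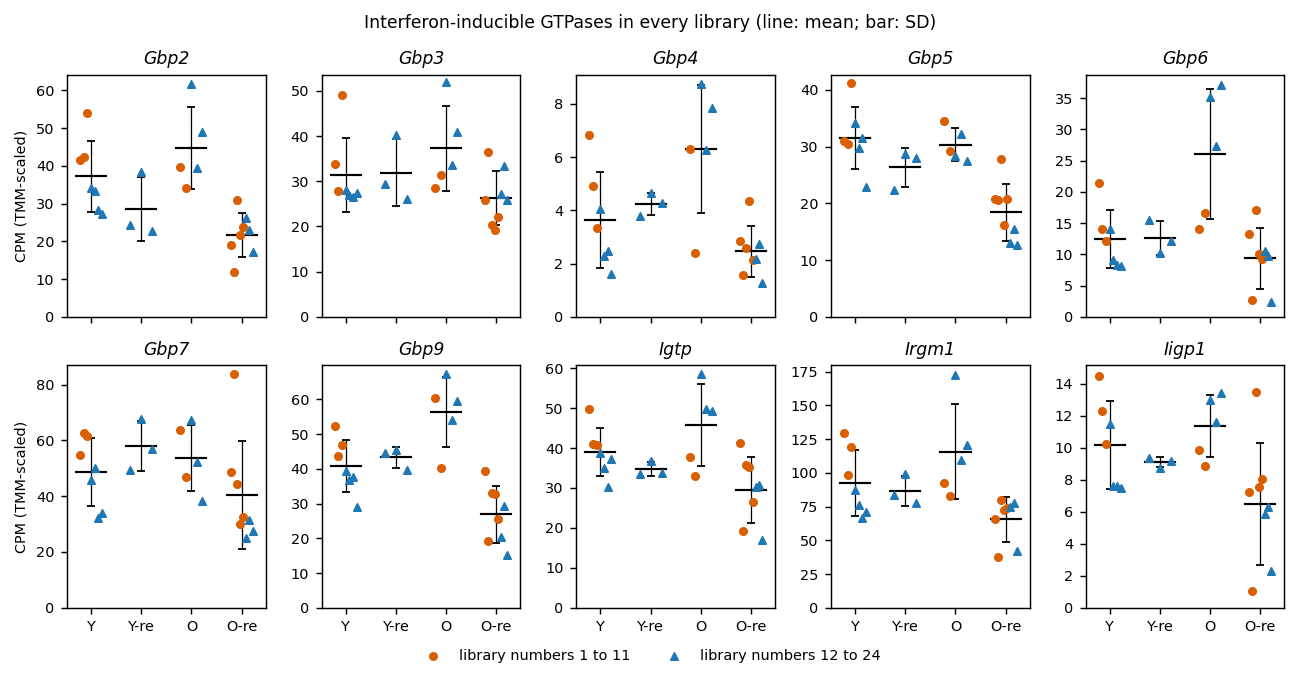
TMM-scaled CPM of each of the 10 GTPases (vertical axes, each from 0) in the 4 groups, with 1 point per library, a line for the group mean and a bar for the SD. Circles are library numbers 1 to 11 and triangles 12 to 24. The O-re points of Gbp2, Gbp9 and Irgm1 lie below every O point.

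Of the 10 GTPases, 2 fell in microglia of old repopulated mice against those of old mice. All 10 members had a negative fold change in O-re against O, with a median log2 fold change of -0.81 where the median over all genes was 0.004, and Gbp2 and Gbp9 passed the threshold (edgeR quasi-likelihood test, Benjamini-Hochberg adjusted p under 0.05). Genes called lower made up 0.214% of all genes tested in this comparison, and genes called in either direction 0.278%. At an unadjusted p under 0.05, 9 of the 10 members passed, against 10.4% of all genes. At the same adjusted threshold DESeq2 called 7 members (1.67% of all genes) and voom with sample quality weights 6 (2.21%). A fit of only the O and O-re libraries called no member by edgeR and no gene at all (0.0%), with adjusted p of 0.169 for Gbp2 and 0.18 for Gbp9. In these bulk samples, fewer cells that express a gene and less of its RNA per cell cannot be told apart.

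Gbp2, a guanylate-binding protein of pathogen vacuoles, was at 39.6, 34.1, 61.7, 39.5 and 48.9 CPM in the O libraries. In O-re it ranged from 11.9 to 30.9 CPM around a median of 22.3. Every O-re library was thus below every O library. On the log2 scale the fold change was -1.04 ± 0.20 (SE), with a 95% interval of -1.46 to -0.63 and an edgeR adjusted p of 0.0305. The call was lost when any of O replicates 1, 3, 4 and 5 or O-re replicates 4 and 8 was left out, with adjusted p between 0.054 and 0.0929 and log2 fold changes of -1.09 to -0.90.

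Gbp9, from the chromosome 5 cluster, was at 60.4, 40.3, 67.2, 54.1 and 59.5 CPM in O. In O-re it lay between 15.2 and 39.5 CPM, with a median of 27.4. The groups again did not overlap, although O replicate 2 (40.3) and O-re replicate 1 (39.5) nearly met. This made a log2 difference of -1.07 ± 0.18 (SE, 95% interval -1.44 to -0.69, edgeR adjusted p = 0.0145), and leaving out O replicate 4 took the adjusted p to 0.0507. Gbp4, whose annotated span overlaps that of Gbp9, was low throughout, at 6.31, 2.41, 8.73, 6.25 and 7.83 CPM in O and 1.26 to 4.35 CPM in O-re. The estimate was -1.36 ± 0.33 (SE) on the log2 scale, with an edgeR adjusted p of 0.0771. Gbp6 had the most negative estimate, -1.48 ± 0.36 (SE, edgeR adjusted p = 0.0792), from 14.1, 16.6, 35.2, 27.4 and 37.0 CPM in O and 2.42 to 17.1 CPM in O-re. For both Gbp4 and Gbp6 the ranges overlapped.

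Irgm1, the regulator of the family, was at 92.5, 83.0, 173, 110 and 121 CPM in O. It lay between 37.4 and 80.1 CPM in O-re, below all O libraries. Its fold change did not pass the test, at -0.82 ± 0.20 (SE, edgeR adjusted p = 0.079). Of the 10 members, 3 (Gbp2, Gbp9 and Irgm1) had O-re libraries entirely below O libraries, as had 0.433% of all genes tested. Igtp, the other regulator, was at 37.7, 33.1, 58.6, 49.7 and 49.4 CPM in O and 17.03 to 41.2 CPM in O-re, a log2 difference of -0.63 ± 0.17 (SE, edgeR adjusted p = 0.121). The effector Iigp1 was at 9.88, 8.88, 12.97, 11.6 and 13.4 CPM in O and spread from 1.03 to 13.5 CPM in O-re, and its estimate of -0.81 had an interval of -1.54 to -0.08.

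Gbp5, which promotes inflammasome assembly, stood on the threshold. It was at 34.6, 29.1, 28.3, 32.2 and 27.4 CPM in O and at 12.7 to 27.8 CPM in O-re, so only the highest O-re library reached into the O range. Its edgeR adjusted p was 0.0500036, for a log2 fold change of -0.72 ± 0.16 (SE). It was called when Y replicate 3, O replicate 2, O-re replicate 1 or O-re replicate 3 was left out. Gbp3 and Gbp7, its neighbours on chromosome 3, showed the smallest differences. Gbp3 was at 28.6, 31.3, 52.0, 33.5 and 41.0 CPM in O and 19.2 to 36.4 CPM in O-re (log2 fold change -0.50, 95% interval -0.88 to -0.13). Gbp7 was at 63.6, 46.8, 67.3, 52.3 and 38.2 CPM in O and 24.8 to 83.7 CPM in O-re (log2 fold change -0.41, 95% interval -0.91 to 0.09). The highest Gbp7 value of all libraries, 83.7 CPM, was that of O-re replicate 2.

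**Figure D2:**
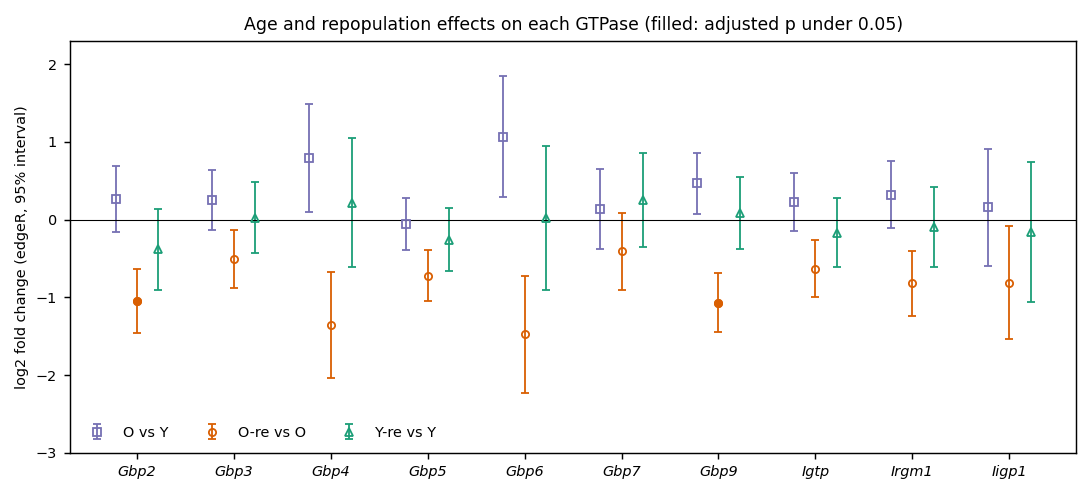
Log2 fold changes (vertical axis) of the 10 GTPases from edgeR with 95% intervals, for O against Y (squares), O-re against O (circles) and Y-re against Y (triangles). Filled symbols passed an adjusted p of 0.05: only Gbp2 (-1.04) and Gbp9 (-1.07) in O-re against O are filled.

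The count of called members in O-re against O depended on the fit. Leaving out 1 library at a time gave between 0 and 5 called members. There were 0 without O replicate 4 (0.0268% of all genes called) and 1 without O replicate 1 (0.0752%), 3 (0.177%) or 5 (0.0536%) or without O-re replicate 4 (0.086%) or 8 (0.0858%). There were 4 without O-re replicate 3 (0.434%) and 5 without O replicate 2 (0.586%) or O-re replicate 1 (0.995%). The fold changes of all 10 members stayed negative in each of these 23 fits, and their median ran from -0.96 to -0.72. Without Y replicate 3, the library least like the others, 3 members were called (0.333% of all genes).

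Within the runs of library numbers, the direction was the same and the size differed. In numbers 12 to 24, all 10 members had every O-re library below every O library, as had 13.8% of all genes, and 9 of 10 were called, all of them lower, against 12.7% of genes called in either direction. The median log2 fold change was -1.14 there. In numbers 1 to 11, with 2 O and 5 O-re libraries, the median was -0.48, all 10 were negative, 4 did not overlap (4.84% of all genes) and none was called by edgeR, as none of all genes was. A test of the difference between the runs called none of the members and none of the 18720 genes. The differences were -1.58 ± 0.70 (SE) for Gbp6, -0.73 ± 0.33 for Gbp9 and -0.85 ± 0.32 for Igtp, and the smallest edgeR adjusted p of the 10 was 0.672.

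Marker sums of other cell types moved in part with these groups. The median sum of border-associated macrophage markers (7 genes) was 432 CPM in O and 656 in O-re, with ranges of 182 to 878 and 70.3 to 1230. Of these 7, 5 had positive and 2 negative estimates in O-re against O, and 0 were called by edgeR. The largest mean, that of F13a1, was 178 CPM in O and 283 in O-re, while Cd163 averaged 22.3 and 8.04 CPM. Monocyte and neutrophil markers had medians of 823 CPM in O and 542 in O-re. Astrocyte markers (5 genes) had medians of 80.8 and 43.4 CPM. B cell markers (5 genes) had medians of 190 CPM in Y, 105 in Y-re, 165 in O and 65.8 in O-re, and 3 of the 5 averaged under 1 CPM in each group. The microglial markers themselves had medians of 20000 CPM in O and 15900 CPM in O-re, with overlapping ranges. In O replicates 1 to 5 the members' mean centred log2 CPM was 0.363, 0.063, 0.878, 0.512 and 0.627. Monocyte and neutrophil markers summed there to 243, 823, 2170, 427 and 1240 CPM. In O-re replicates 1 to 8 the members' mean was -0.135, -0.958, 0.023, -0.272, -0.37, -0.468, -0.306 and -1.154. The monocyte and neutrophil sums there were 145, 272, 247, 158, 1290, 2930, 813 and 1120 CPM. The part of these cells in the GTPase values was not tested.

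Against young mice, old mice showed no called change in the family. Of the 10 members, none was called in O against Y by edgeR, where 2.83% of all genes were called, and 3 had an unadjusted p under 0.05 (15.3% of all genes). DESeq2 also called none (5.18% of all genes), and voom with sample quality weights called 3 (12.6%). Positive estimates were found for 9 members, with a median log2 fold change of 0.26 (-0.01 over all genes). Leaving out 1 library moved that median between 0.12, without O replicate 3, and 0.38, without Y replicate 3. The O and Y libraries overlapped for all 10 members (1.43% of all genes had O entirely above Y and 0.78% entirely below). Gbp6 had the largest estimate, from 8.08 to 21.4 CPM in Y (median 12.1) to the O values given above (1.07 ± 0.38 SE, edgeR adjusted p = 0.143). Gbp4 followed at 0.79 ± 0.34 (SE, edgeR adjusted p = 0.251), from 1.62 to 6.82 CPM in Y (median 3.34), and Gbp9 at 0.47 ± 0.19 (SE, edgeR adjusted p = 0.216), from 29.0 to 52.3 CPM (median 39.2). Gbp5, at 22.9 to 41.2 CPM in Y, had the only negative estimate, -0.06.

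The age comparison ran in opposite directions in the 2 runs of library numbers. In numbers 12 to 24, 8 of 10 members had all O libraries above all Y libraries (13.3% of all genes), 7 were called (15.7% of all genes in either direction) and the median log2 fold change was 0.67. In numbers 1 to 11, the median was -0.25, 1 of 10 members was positive, 4 had O below Y without overlap (6.65% of all genes) and none was called by edgeR, as was 0.00533% of all genes. For Irgm1 the estimates were -0.40 and 0.84, a difference of 1.24 ± 0.36 (SE, edgeR adjusted p = 0.419). For Gbp6 they were -0.04 and 1.75, and for Igtp -0.31 and 0.57. None of the 10 differences passed adjustment over all genes, nor did that of any other gene.

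Both groups contributed to that contrast. Among Y libraries, 5 members (Gbp2, Gbp7, Gbp9, Igtp and Irgm1) were higher in numbers 1 to 3 than in numbers 12 to 15 without overlap, as were 5.63% of all genes. Irgm1, for example, was at 130, 98.1 and 119 CPM in the former and 87.4, 76.0, 66.7 and 71.3 CPM in the latter. Among O libraries, 5 members (Gbp3, Gbp6, Igtp, Irgm1 and Iigp1) were lower in the lower numbers without overlap, as were 12.4% of all genes. Gbp6 was at 14.1 and 16.6 CPM in O numbers 4 and 6 and at 35.2, 27.4 and 37.0 CPM in O numbers 16 to 18.

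**Figure D3:**
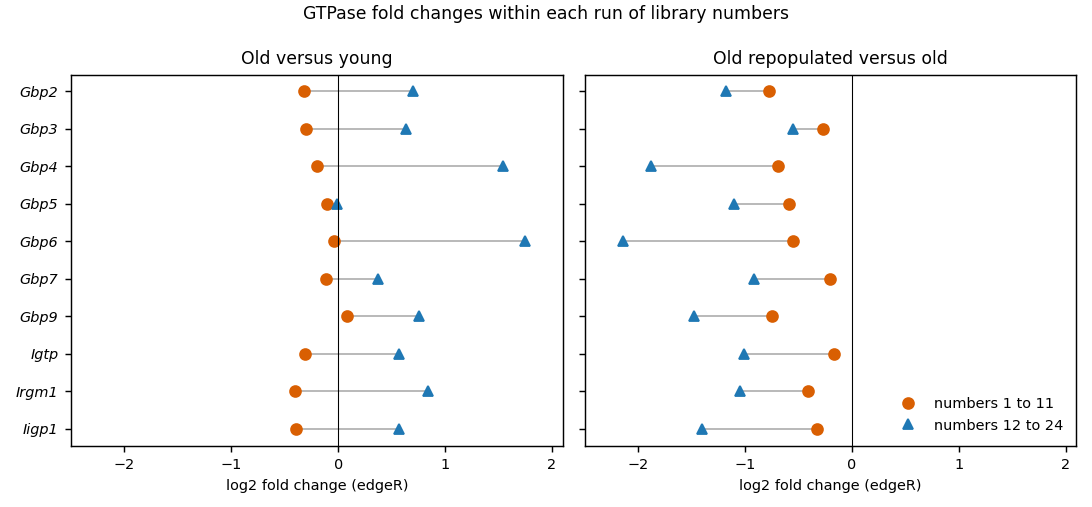
Log2 fold changes (horizontal axes) of the 10 GTPases within library numbers 1 to 11 (circles) and 12 to 24 (triangles), from a single edgeR model with a mean for each group in each run. For O against Y (left) 9 of the circles lie below 0 and 9 of the triangles above it, and for O-re against O (right) all symbols lie below 0.

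In young mice, repopulation left no called difference in the family. None of the 10 members was called in Y-re against Y by edgeR (1.34% of all genes were called), by DESeq2 (4.46%) or by voom (13.8%). None had an unadjusted p under 0.05 (15.1% of all genes), and 5 estimates were positive and 5 negative, with a median of -0.04 (-0.04 over all genes). Gbp2 had the most negative estimate, from 27.1 to 54.0 CPM in Y (median 34.2) to 24.4, 38.3 and 22.8 CPM in Y-re, with a 95% interval of -0.90 to 0.13 on the log2 scale. Irgm1 was at 66.7 to 130 CPM in Y (median 87.4) and at 83.3, 99.05 and 77.3 CPM in Y-re (interval -0.61 to 0.41). Gbp9 was at 44.6, 45.4 and 39.8 CPM in Y-re (interval -0.37 to 0.55). The interval of Gbp6 was -0.90 to 0.95. The Y-re libraries all carry numbers 22 to 24, so a comparison was possible only with Y numbers 12 to 15, where the median was 0.24 and again none was called by edgeR (9.3% of all genes).

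The difference between these repopulation effects was tested directly. The estimate was negative for all 10 members, meaning a more negative change with repopulation in old than in young mice, with a median of -0.66 (0.03 over all genes). None was called by edgeR or by DESeq2 (0.246% of all genes), and no gene of the whole table was called by edgeR (0.0%). Voom with sample quality weights called 2 members (0.807% of all genes), and 5 had an unadjusted p under 0.05 in edgeR (8.24% of all genes). Gbp9 had the smallest adjusted p, with a difference of -1.15 ± 0.28 (SE, 95% interval -1.74 to -0.57, edgeR adjusted p = 0.336). Within library numbers 12 to 24, 9 members were called, against 8.87% of genes in that fit. Over all libraries the difference between the repopulation effects in old and young mice did not pass the edgeR test.

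O-re was also compared with Y directly, in a comparison that shares its samples with those above. Gbp2, Gbp5 and Gbp9 were called, all lower in O-re than in Y, where 5.92% of all genes were called lower and 15.2% in either direction. The log2 fold changes were -0.78 ± 0.18 for Gbp2 (SE, edgeR adjusted p = 0.00731), -0.78 ± 0.15 for Gbp5 (adjusted p = 0.00155) and -0.60 ± 0.17 for Gbp9 (adjusted p = 0.0186). All 10 estimates were negative, with a median of -0.53, and all 10 members had overlapping ranges (1.26% of all genes had O-re entirely below Y). All 3 calls held in each of the 23 fits that left out 1 library. Within numbers 1 to 11 none of the members was called (0.0107% of all genes were), and within 12 to 24 there were 4, against 41.1% of all genes. Gbp2 was not called in either run, with adjusted p of 0.262 in the lower and 0.0864 in the higher numbers by edgeR.

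Against young repopulated libraries, all 10 members had negative estimates in O-re with a median of -0.46. None was called by edgeR, as no gene was (0.0%), or by DESeq2 (0.491%), and 2 had an unadjusted p under 0.05 (11.7% of all genes). Gbp9 had all O-re libraries below the Y-re libraries, as had 1.05% of all genes. The smallest adjusted p was that of Gbp9, at -0.69 ± 0.21 (SE, edgeR adjusted p = 0.38). Voom with sample quality weights called 3 members (17% of all genes). All Y-re libraries carry numbers 22 to 24, while 5 of the 8 O-re libraries carry numbers 1 to 11. Within numbers 12 to 24, edgeR called 5 members (36.3% of all genes). In that run 6 members had O-re entirely below Y-re, as had 21.6% of all genes.

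**Figure D4:**
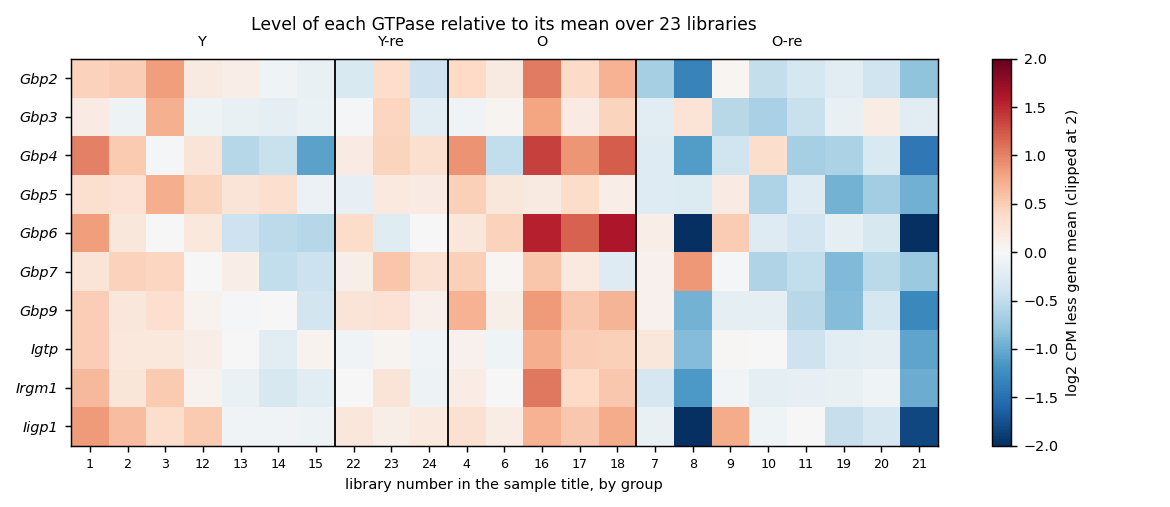
Log2 CPM of each GTPase (rows) less its mean over the 23 libraries, by group and by the library number in the sample title (columns), red above and blue below the mean, with colours clipped at 2. O number 16 is above the mean in all 10 rows, and O-re numbers 8 and 21 hold the lowest values of Gbp6 and Iigp1.

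The members varied together within groups, with exceptions. With group means removed, the 45 pairs of members had correlations of log2 CPM over the 23 libraries between -0.29 and 0.91, with a median of 0.51. These values describe libraries that share group, run and scaling, and carry no test. Igtp and Irgm1, the regulators, had median correlations with the other members of 0.77 and 0.76, and Iigp1, Gbp9 and Gbp6 of about the same size (0.71, 0.71 and 0.7). Gbp4 and Gbp2 had medians of 0.61 and 0.58, Gbp5 of 0.25, and Gbp3 and Gbp7 of 0.09 each. The mean centred level over the 10 members ran from -1.15 in O-re replicate 8 to 0.88 in O replicate 3. The ranges were -0.31 to 0.55 in Y, 0.03 to 0.25 in Y-re, 0.06 to 0.88 in O and -1.15 to 0.02 in O-re.

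The genes most alike to this mean level were sought among 10171 genes with a mean of at least 5 CPM, outside the members and the lists used below. Over the 23 libraries the highest correlations were those of Adar, an RNA editing enzyme (r = 0.962), Herc6, a ligase for the ubiquitin-like ISG15 (0.95), Dtx3l, a ubiquitin ligase (0.936), and Znfx1, a helicase (0.931). Pml, Eif2ak2, Nod1 and Dopey2 followed, between 0.899 and 0.914. With group means removed the same 8 genes had correlations of 0.792 to 0.97. Adar was at 154 ± 24.3 CPM (SD, n = 5) in O and 115 ± 18.8 CPM (SD, n = 8) in O-re.

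The pathway around the members was followed in 8 lists of 92 genes, ordered by role. Among the ligands, Ifnb1 had a mean of 0.816 to 1.01 CPM in the 4 groups and a count in all libraries but 1. Ifng had no count in any Y or O-re library, and counts in 1 of 3 Y-re and 2 of 5 O libraries. A count of 0 allows up to 3 counts, or at most 0.0683 CPM in these libraries, and covers counting error only. Neither Ifng nor Ifna4 passed the filter. Of the other 5 genes among interferons and receptors, including Ifngr1 (0.03 ± 0.13 SE in O-re against O) and Ifnar1 (0.26 ± 0.18 SE), none was called in any comparison by edgeR, and at most 1 in a comparison had an unadjusted p under 0.05. Of 9 kinases and transcription factors, 1 fell in O-re against O: Stat2, a factor that acts at ISRE elements, which went from 89.3 to 230 CPM in O (mean 151) to 52.5 to 96.0 CPM in O-re (mean 72.1), a log2 difference of -1.06 ± 0.18 (SE, edgeR adjusted p = 0.0165). In that comparison 0.214% of all genes were called lower. Irf1, an activator of Gbp genes, had an estimate of -0.01 ± 0.22 (SE). None of 5 negative regulators, Socs1 and Usp18 among them, was called by edgeR in any comparison, again with at most 1 at an unadjusted p under 0.05.

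Other interferon-inducible GTPases were followed in the same way, some of them, such as Mx1 and Gvin1, from outside the families of the 10. Of 14 tested GTPases outside the 10, all 14 were negative in O-re against O, with a median of -0.88. None was called by edgeR, and 9 had an unadjusted p under 0.05 (10.4% of all genes). In O against Y all 14 were positive (median 0.70) and 2 rose: Ifi47, a further immunity-related GTPase (2.69 ± 0.55 SE, edgeR adjusted p = 0.01), and Gvin1, a very large inducible GTPase (0.92 ± 0.22 SE, edgeR adjusted p = 0.0251). In that comparison 2.6% of all genes were called higher. Ifi47 spread from 6.915 to 93.5 CPM in O (2.55 to 7.935 in Y) and Gvin1 from 170 to 414 CPM (102 to 171.5 in Y). Ifi47 was also called higher in O-re against Y, the opposite side from Gbp2, Gbp5 and Gbp9, at 1.71 ± 0.50 (SE, edgeR adjusted p = 0.024), as were 9.29% of all genes.

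The targets of type I interferon came next. All 22 were negative in O-re against O, with a median of -1.12, and 4 fell: Ifit2 (-1.46 ± 0.29 SE, edgeR adjusted p = 0.0327) and Ifit3 (-1.34 ± 0.28), which bind foreign RNA, Xaf1 (-1.02 ± 0.21) and the RNA sensor gene Ddx58 (-0.91 ± 0.20). In that comparison 0.214% of all genes were called lower. In O against Y all 22 were positive and 21 had an unadjusted p under 0.05 (15.3% of all genes). Oas3 and Cmpk2 rose, where 2.6% of all genes were called higher. Oas3 spread from 16.6 to 142 CPM in O (6.75 to 22.9 in Y). Cmpk2 spread from 22.45 to 50.3 CPM in O (9.90 to 21.5 in Y). Results of the lists are given over all libraries only. For most of the 10 members, estimates in this comparison differed in direction between the runs of library numbers. Of the 18 antigen presentation targets, 6 rose in O against Y, among them Ciita, the master regulator of MHC class II (4.52 ± 0.79 SE, edgeR adjusted p = 0.0046), and Cd74 (3.40 ± 0.63). Ciita spread from 0.862 to 32.9 CPM in O (0.0876 to 1.26 in Y), and Cd74 from 153 to 2232 CPM (34.2 to 247.5 in Y). In that comparison 7 of 10 monocyte and neutrophil markers were called higher (median log2 fold change 2.94), as were 2.6% of all genes. All 10 microglial markers had negative estimates there (median -0.607), and 1 was called lower (0.235% of all genes). The part of other cells in these rises was not tested. Of the antigen presentation targets, none was called in O-re against O by edgeR, 5 had an unadjusted p under 0.05 (10.4% of all genes), and Ciita and Cd74 had estimates of -0.29 and -0.23. In O-re against Y 6 were called higher and Cxcl10 lower (-0.83 ± 0.24 SE), where 9.29% of all genes were called higher and 5.92% lower. Whether lists differ from each other was not tested.

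Partners of the GTPases were examined last. None of 10 genes of ATG8 conjugation, the machinery that directs immunity-related GTPases to vacuoles, was called in O-re against O or in O against Y by edgeR, with 0 and 3 at an unadjusted p under 0.05 (10.4% and 15.3% of all genes). In O-re against Y, 2 of them, Atg3 and Gabarap, were called higher by edgeR, as were 9.29% of all genes. Of 5 inflammasome genes that act with guanylate-binding proteins, none was called in O-re against O by edgeR, and 3 had an unadjusted p under 0.05 (10.4% of all genes). In O-re against Y, Casp4, a receptor for lipopolysaccharide, fell by 0.83 on the log2 scale (SE 0.17, edgeR adjusted p = 0.0034), and Aim2 and Pycard were also called lower, as were 5.92% of all genes. In Y-re against Y only Pycard was called, again lower (0.513% of all genes), while 3 of the 5 were lower at an unadjusted p under 0.05 in edgeR (15.1% of all genes in either direction). Casp4 averaged 67.3 CPM in Y and 36.7 CPM in Y-re, and Aim2 119 and 93.4 CPM.

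**Figure D5:**
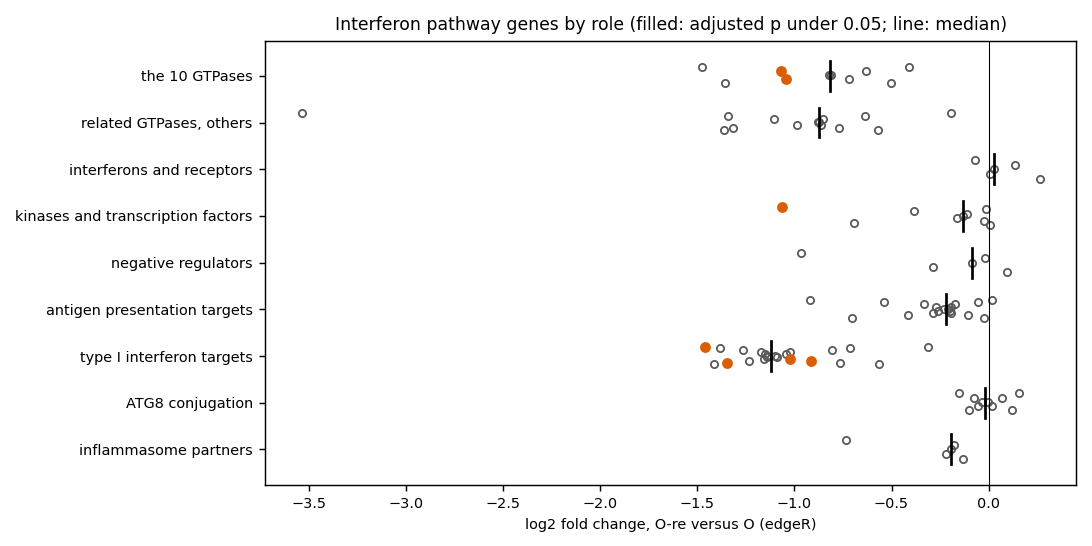
Log2 fold change in O-re against O (horizontal axis, edgeR) of the 10 GTPases and of each tested gene in the 8 pathway lists, with a line at each list's median and filled points for adjusted p under 0.05. The 10 GTPases (median -0.81), the other related GTPases (-0.88) and the type I interferon targets (-1.12) lie left of 0 with every gene.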

How the data were processed

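Stranded poly(A) libraries were sequenced as single reads, per the labels' protocols. Per the submitters' processing notes, FastQC 0.11.5, STAR, RSEM, limma and GRCm38 were named. The authors deposited 1 table per library with expected counts and TPM. Expected counts, of which 87.26% were whole (tolerance 1e-06), were rounded here. TPM were used only to order genes. Totals were 43.657 to 58.189 M (M, 1000000). No 2 libraries were identical. Nothing says that libraries came from separate animals, so p-values measure the spread between these samples.

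In R 4.3.3, edgeR 4.0.16 (filterByExpr, TMM, glmQLFit and glmQLFTest, all 23 libraries, 4 group means, tested on simulated data) gave 6 contrasts, with adjusted p under 0.05 called. CPM are TMM-scaled, and log2 CPM used a prior count of 2. Alternatives were DESeq2 1.42.0, voom with quality weights (limma 3.58.1), RLE and upper-quartile scaling, testing unfiltered genes or those averaging 5 CPM or more, robust dispersion, only the groups compared, library number as a term or within runs, and leaving out each library. The test of a difference between runs was added after seeing the data. Positions are from GENCODE M21, where 49035 identifiers matched by version. Replicates are numbered in accession order. Named genes were the members, any gene of the lists, and the 8 genes outside them most correlated with the members' mean, predicted genes and pseudogenes left out. Marker lists for B cells and endothelial cells summed to 25.9 to 301 CPM and 20.7 to 91.4 CPM. Members and lists were chosen with earlier results of these data known. A gene of the lists is not reported here by name.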

Additional observations from a re-analysis of the deposited data

Results flagged for a closer look

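Of 30 sets of libraries (10 members in the 3 groups with 4 to 10 libraries), 2 held a library far from the others of its group. Chance marks about 1 in 20 such sets. For Gbp3, Y replicate 3, the library with the fewest detected genes, was the highest at 49.0 CPM, while the other 6 young libraries lay between 26.6 and 33.8 CPM. For Gbp4, O replicate 2 was the lowest at 2.41 CPM, while the other 4 old libraries lay between 6.25 and 8.73 CPM. Without O replicate 2, Gbp4 passed the test in O-re against O (edgeR log2 fold change -1.57 ± 0.31 SE, adjusted p = 0.0235).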

How the results depend on the processing

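No paired analysis was possible because the sample titles give each library its own number and no number is shared between groups. For O-re against O, where 2 members were called, DESeq2 called 7, voom with sample quality weights 6, library number as a term 4 (0.609% of all genes), library numbers 12 to 24 alone 9, and both only the groups compared and library numbers 1 to 11 alone 0. Leaving out 1 library gave 0 to 5. For O against Y (0), voom called 3 and numbers 12 to 24 alone 7. For O-re against Y (3), numbers 1 to 11 alone gave 0, and leaving out 1 library 3 to 4. For O-re against Y-re (0), voom called 3 (17% of all genes), library number as a term 2 (4.52%) and numbers 12 to 24 alone 5 (36.3%). For the difference between repopulation effects (0), voom called 2 and numbers 12 to 24 alone 9. Leaving out 1 library gave 0 in these last 2, in O against Y and in Y-re against Y, which stayed at 0 in all fits run. The cause of these differences was not tested. In O-re against O all 10 members were negative in each fit run, and no fold change called in the main fit changed sign in any. In O against Y, members called higher in numbers 12 to 24 alone, such as Irgm1 (0.84), were negative in numbers 1 to 11 alone (Irgm1 -0.40). The exception was Gbp9 (0.08 in numbers 1 to 11). A mean of at least 5 CPM left 9 members, without Gbp4. The difference of effects was not fitted with only the groups compared, since it uses all 4 groups, nor within numbers 1 to 11, which hold no Y-re library. Counts for Gbp4 rested on 1.26 to 8.73 CPM.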

Other observations

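O-re replicate 2 did not have the same position for each member. Its Gbp7 (83.7 CPM) and Gbp3 (36.4 CPM) were the highest of the 8 old repopulated libraries, where the others lay between 24.8 and 48.5 CPM for Gbp7. In the same library Gbp2 (11.9 CPM), Iigp1 (1.03 CPM) and Irgm1 (37.4 CPM) were the lowest of the group. O-re replicate 8 shared the low Iigp1 (2.27 CPM) and Gbp6 (2.42 CPM, beside 2.70 CPM in replicate 2), with the other 6 libraries at 5.85 to 13.5 CPM for Iigp1 and 9.25 to 17.1 CPM for Gbp6, but its Gbp7 was 27.4 CPM. Microglial markers summed to 16700 CPM in replicate 2 and 9810 CPM in replicate 8, and border-associated macrophage markers to 809 and 1190 CPM. Without replicate 2, the log2 fold change of Gbp7 in O-re against O was -0.65 ± 0.19 (SE, edgeR adjusted p = 0.187).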
